A study of Mus musculus with 62 samples.

Results

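Macrophage and leukocyte genes were examined in whole mouse muscle as a set of 10 symbols: C1qa, C1qb, C1qc, Lyz2, Cd68, Adgre1, Csf1r, Mrc1, Cd14 and Ptprc. The genes were chosen by name, as markers of macrophages and other leukocytes, and their rows were read from each table of FPKM (fragments per kilobase of transcript, scaled to the mapped reads of the library). All 10 were listed among the 29239 symbols of the chow experiment, the 21936 of the hypoxia and diet experiment and the 21039 genes of the vector experiment. In the cell line experiment 6 of the 10 were listed among 17896 symbols, and C1qa, C1qb, C1qc and Adgre1 were not.

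The study compared muscle with and without the transcription factor ChREBP, encoded by Mlxipl, in 62 libraries of 14 groups, of which 54 libraries in 12 groups came from muscle. Male mice aged 8 to 10 weeks were used unless the study stated otherwise. Whether this was the age at the start or at collection was not stated. ChMKO mice carry a floxed Mlxipl exon 8 removed by Cre under the muscle creatine kinase promoter, which is active in muscle fibers and also in heart, so that leukocytes of these mice are not a target of the deletion. Their littermates with the floxed alleles and no deletion are called F/F. Gastrocnemius (GC, a mostly fast-twitch muscle) and soleus (SOL, a mostly slow-twitch muscle) were taken from 5 F/F and 5 ChMKO mice on regular chow. GC was also taken from 4 F/F and 4 ChMKO mice in each of normoxia (Norm), hypoxia (Hypo, 2 weeks at a simulated 5500 m) and a high-fructose diet (HFrD, 68% fructose for 3 months). In the vector experiment GC of C57BL/6J mice was injected with AAV9 that expressed ChREBP (AAV-MLXIPL) or GFP (AAV-CON) from a cytomegalovirus promoter, which is not restricted to muscle fibers, and was collected 14 days later (n = 5 per group). C2C12, a mouse myoblast line differentiated for 7 days, served as muscle cells without leukocytes, as a control line and a stable line that overexpressed ChREBP (OE, n = 4 per group).

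Skeletal muscle holds few leukocytes at rest, and most of them are macrophages that lie between the fibers and along vessels. Macrophages depend on the growth factor receptor Csf1r, clear debris and secrete C1q, the recognition unit that starts the classical complement pathway. C1q is built from the chains of C1qa, C1qb and C1qc. Lyz2 encodes lysozyme M of macrophages, monocytes and neutrophils. Cd68 is a glycoprotein of macrophage endosomes and lysosomes, Adgre1 encodes the surface antigen F4/80, and Mrc1 encodes the mannose receptor CD206. Cd14 encodes the coreceptor that hands lipopolysaccharide to Tlr4, and Ptprc encodes CD45, the phosphatase carried by nearly all blood-derived nucleated cells. In bulk muscle RNA, fewer leukocytes and less RNA of these genes per cell cannot be told apart.

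The 3 C1q genes lie side by side on the minus strand of chromosome 4 (GRCm39 C1qb 136607440-136613498, C1qc 136617115-136620376 and C1qa 136623228-136626114). RefSeq promoters of build GRCm38.p6, 300 bases from 250 before to 50 after the start, were found for 6 of the 10 genes. The first pair below belongs to the neighboring C1q genes, whose levels moved by similar amounts with the diet. Cd68 and Lyz2 are shown beside them because both fell with C1q under the high-fructose diet. Capitals mark GAGGAA, the core bound by PU.1 (the ETS factor of myeloid cells), or its reverse complement TTCCTC.
C1qb, chr4:136886151-136886450, minus strand: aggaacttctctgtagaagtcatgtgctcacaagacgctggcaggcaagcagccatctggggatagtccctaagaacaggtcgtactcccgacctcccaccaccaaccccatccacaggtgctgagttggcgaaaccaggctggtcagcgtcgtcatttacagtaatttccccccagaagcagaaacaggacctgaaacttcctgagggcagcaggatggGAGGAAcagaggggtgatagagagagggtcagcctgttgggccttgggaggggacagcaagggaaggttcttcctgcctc
C1qc, chr4:136892865-136893164, minus strand: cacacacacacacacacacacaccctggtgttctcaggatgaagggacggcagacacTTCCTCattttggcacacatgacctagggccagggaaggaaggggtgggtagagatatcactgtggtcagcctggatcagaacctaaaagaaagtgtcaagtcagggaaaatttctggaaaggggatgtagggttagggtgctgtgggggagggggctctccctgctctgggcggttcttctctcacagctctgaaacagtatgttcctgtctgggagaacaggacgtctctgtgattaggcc
Cd68, chr11:69666121-69666420, minus strand: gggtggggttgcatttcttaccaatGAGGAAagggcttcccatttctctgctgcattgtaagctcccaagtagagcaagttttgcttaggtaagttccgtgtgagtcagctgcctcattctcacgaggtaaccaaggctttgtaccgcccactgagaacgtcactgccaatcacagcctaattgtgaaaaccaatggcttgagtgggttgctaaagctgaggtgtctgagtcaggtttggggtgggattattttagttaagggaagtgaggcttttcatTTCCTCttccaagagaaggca
Lyz2, chr10:117282223-117282522, minus strand: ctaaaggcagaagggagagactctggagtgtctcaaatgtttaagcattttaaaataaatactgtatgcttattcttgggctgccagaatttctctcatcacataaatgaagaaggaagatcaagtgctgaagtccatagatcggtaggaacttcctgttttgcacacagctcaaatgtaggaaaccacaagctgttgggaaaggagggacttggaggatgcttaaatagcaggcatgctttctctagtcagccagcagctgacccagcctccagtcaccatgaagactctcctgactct
The letters GAGGAA were found on either strand in 5 of the 7 promoters of the 6 genes (those of C1qb, C1qc, Cd68 and Mrc1 and 1 of the 2 of Ptprc) and in 28.3% of all 32851 promoters of that length. In C1qb they began 30 bases before the start on the strand of the gene, and in C1qc they began 193 bases before it on the other strand. TATAAA was present in 1 of the 7, a promoter of Ptprc, against 13.6% of all promoters. CACGTG, the E-box letters found in elements bound by ChREBP, was present in 0 of the 7, against 7.15% of all promoters. These matches describe letters in a window and not bound sites.

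Depth was 14473170 to 23460515 reads per library in the hypoxia and diet experiment, and about 16400000 to 19800000 and 15600000 to 20100000 in the chow and vector experiments. Muscle identity was plain in every muscle group, since 6 fiber genes such as Ckm and Acta1 summed to at least 29363 FPKM per library. Mlxipl was lower in ChMKO than in F/F in all 5 genotype comparisons (for example 3.30 ± 0.15 against 8.63 ± 1.05 FPKM in normoxia, SD, n = 4) and 2.74 higher on the log2 scale with AAV-MLXIPL. The decrease passed the adjusted test in normoxia, hypoxia and diet (adjusted p = 0.00655, 0.00297 and 0.00307) but not on chow (-0.63, adjusted p = 0.413 in GC and -0.47, adjusted p = 0.384 in SOL). Some libraries stood apart from their groups for the leukocyte genes. The normoxic F/F mouse labelled N_WTc369 was the highest of its group for 8 of the 10 genes, the hypoxic ChMKO mouse H_KOc345 and the GC library of ChMKO mouse 59 for all 10. In mouse N_WTc369 the summed FPKM of 7 neutrophil markers, 2 of them at 0, was 60.9, against 0.984 to 3.70 in the other 3 mice of its group. In mouse H_KOc345 that sum was 12.0, against 4.44 to 9.68 in its group. In the hypoxic F/F mouse H_WTc341, the highest of its group for 7 of the 10 genes, it was 16.9 against 2.71 to 3.15. S100a9, a neutrophil gene named after its values were seen, stood at 34.4 FPKM in mouse N_WTc369 against 0.202 to 1.35.

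Between genes, on the FPKM scale, Lyz2 was the most abundant of the 10 in all 12 muscle groups, with group means from 26.4 to 81.4. The C1q genes followed, with C1qa at means of 6.02 to 15.9, C1qb at 5.62 to 13.4 and C1qc at 2.78 to 10.8. Csf1r, Cd68 and Mrc1 had means of 1.27 to 6.48, Adgre1 of 0.627 to 2.52 and Cd14 of 0.619 to 2.00. Ptprc was the lowest gene in the 10 groups of the chow experiment and the hypoxia and diet experiment, at 0.136 to 0.355, stood at 1.02 to 1.1 in the vector experiment, and fell below the limit of a mean of 0.5 FPKM for testing in all comparisons but that of the vector. FPKM divides by length, and in the hypoxia and diet experiment Ptprc had 18313 bases, against 1040 to 6371 for the other genes. By reads it was not the lowest in every group. HFrD F/F mice had 97, 117, 95 and 120 reads of Ptprc and 32, 45, 30 and 29 of Cd14. Normoxic ChMKO mice had 62, 29, 29 and 45 of Ptprc and 99, 29, 64 and 42 of Cd14. Cd14 rested on 16 to 106 reads per library there. The experiments were normalized apart, so levels were compared only within each.

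Most of these genes were lower in the mice on the high-fructose diet than in normoxic mice, with calls in ChMKO mice and over both genotypes but not in F/F mice alone. In ChMKO mice 7 of the 9 genes tested fell against normoxia, namely Lyz2, C1qa, C1qb, C1qc, Cd68, Csf1r and Adgre1, by 0.49 to 1.04 on the log2 scale. Cd14 and Mrc1 did not pass the test. This comparison moved much of the transcriptome, with 44.6% of the 10733 genes tested called lower and 64% called in either direction, and the 7 genes of 9 are to be read against that share. After each library was rescaled by its median ratio, 5 of the 7 were called lower (Csf1r, Lyz2, C1qa, C1qb and C1qc), against 26.6% of all genes in that fit, and the share of calls that were higher went from 30.3% to 50.5%. The median log2 fold change was -0.69 over the 9 genes and -0.17 over all genes tested.

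For Lyz2 the 4 normoxic ChMKO mice had 88.8, 39.6, 73.6 and 62.7 FPKM and the 4 HFrD ChMKO mice 30.4, 34.2, 23.4 and 35.0. Every mouse on the diet was below every normoxic mouse, and the log2 fold change was -1.04 (SE 0.23, adjusted p = 0.00314 by limma). It was the one gene of the set that also passed the limit used by the study, a log2 change of 1 or more in size with unadjusted p under 0.05, which 1.64% of genes passed downward. Lyz2 shares much of its sequence with the neighboring gene Lyz1, and how reads were divided between them was not given in the sources used here.

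C1qa stood at 22.1, 9.93, 17.1 and 14.5 FPKM in normoxic ChMKO mice and at 7.42, 7.94, 7.46 and 9.05 on the diet. The groups did not overlap (log2 fold change -0.87, SE 0.19, adjusted p = 0.00347). C1qc fell from 9.0, 5.15, 8.24 and 7.51 to 3.52, 3.68, 3.44 and 4.80 FPKM, again without overlap (-0.79, SE 0.15, adjusted p = 0.00144). C1qb went from 17.2, 8.04, 15.4 and 11.7 to 6.30, 6.66, 6.49 and 9.21 FPKM, and mouse KO_C309 on the diet lay above normoxic mouse N_KO_374 (-0.75, SE 0.21, adjusted p = 0.0107). The chains of the C1q molecule thus moved by similar amounts on the log2 scale.

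Csf1r, the receptor for the macrophage growth factors Csf1 and Il34, had 4.85, 2.65, 5.56 and 3.63 FPKM in normoxic and 2.36, 2.43, 2.24 and 2.36 in HFrD ChMKO mice. The diet group was tightly spaced and wholly below the normoxic group (-0.59, SE 0.16, adjusted p = 0.00942). Groups that did not overlap in this direction were seen for 4 of the 9 genes (Csf1r, Lyz2, C1qa and C1qc) and for 39.2% of all genes tested. Cd68 went from 6.47, 2.17, 4.79 and 3.08 to 1.48, 2.35, 1.59 and 2.79 FPKM, with overlap (-0.69, SE 0.25, adjusted p = 0.0369). Adgre1 went from 3.29, 1.25, 2.11 and 1.92 to 1.06, 1.37, 0.918 and 1.38 FPKM, also with overlap (-0.49, SE 0.17, adjusted p = 0.0307). These last 2 genes were the least stable: their adjusted p ranged up to 0.122 for Cd68 and 0.114 for Adgre1 over the alternatives tried. C1qb was called in 13 of its 14 alternatives, with an adjusted p of up to 0.0511.

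Cd14 had 3.14, 1.06, 2.14 and 1.68 FPKM in normoxic and 1.37, 1.36, 1.18 and 1.56 in HFrD ChMKO mice (-0.30, SE 0.18, adjusted p = 0.17). Mrc1 had 3.40, 1.82, 2.73 and 2.40 against 2.51, 3.04, 2.47 and 4.99 FPKM (0.23, SE 0.19, adjusted p = 0.315), and its estimate was the only one of the 9 above 0.

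**Figure D1:**
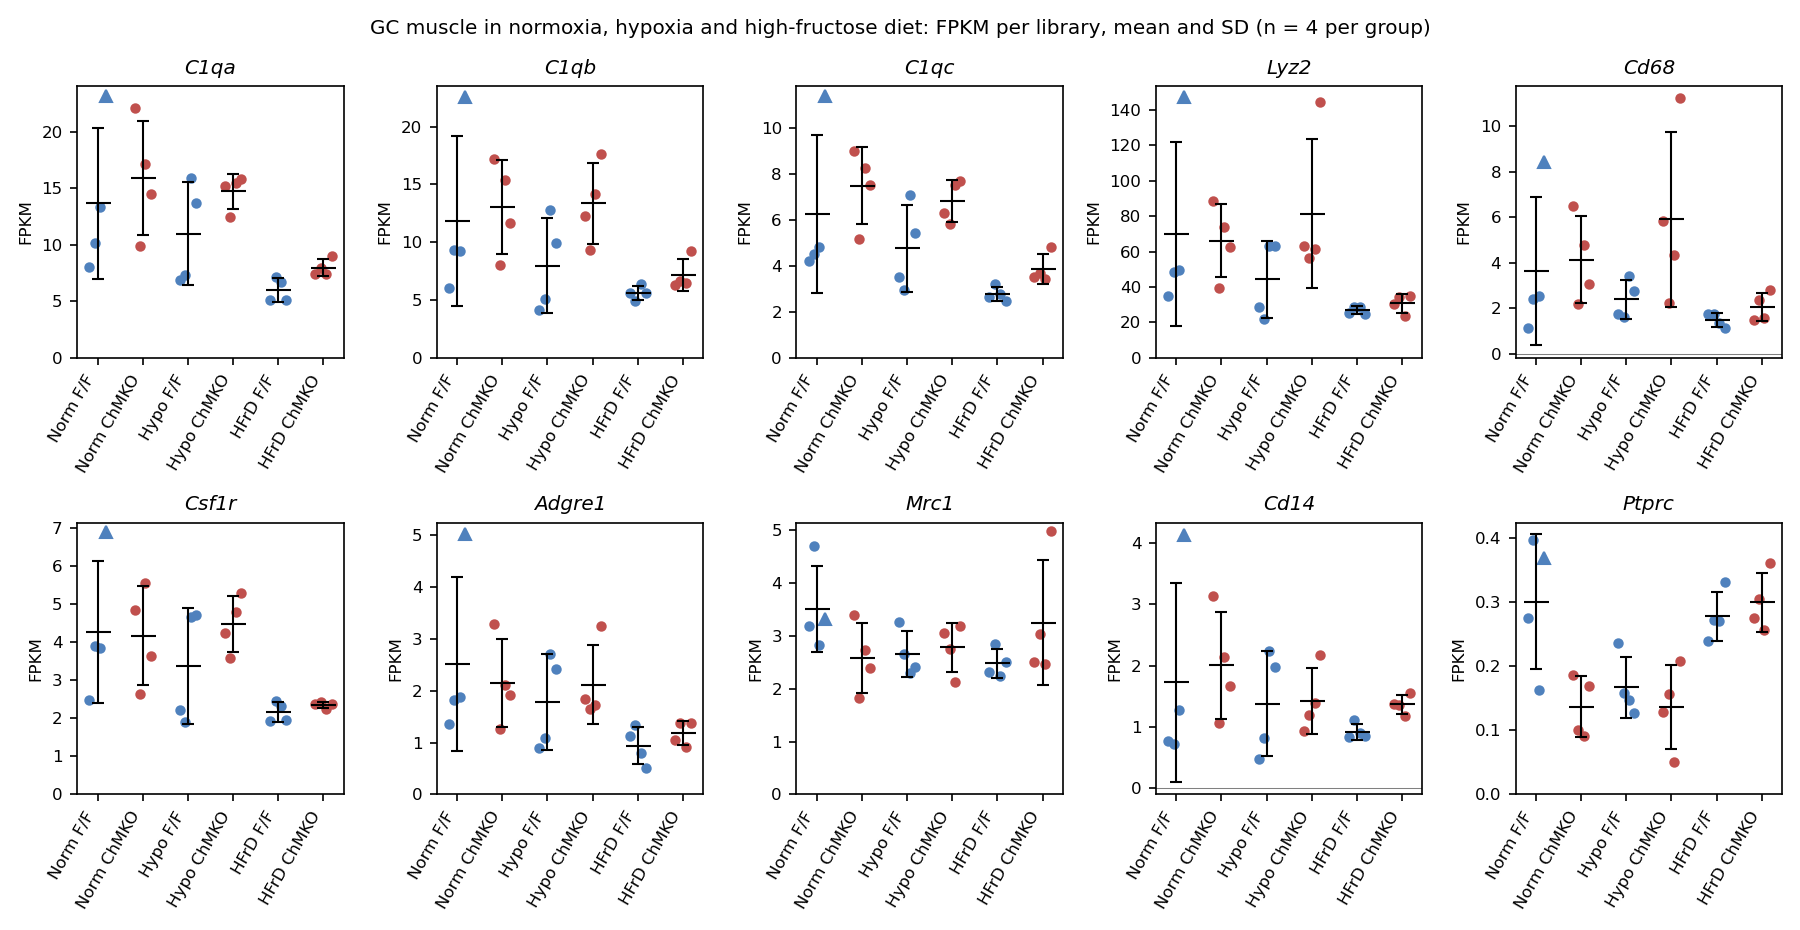
Each panel plots 1 gene, with FPKM on a linear axis and the 6 groups of the hypoxia and diet experiment along the horizontal axis; points are libraries (blue F/F, red ChMKO, n = 4 per group), and bars give the mean and SD. The triangle is normoxic F/F mouse N_WTc369, the highest of its group for 8 of the 10 genes, and the HFrD groups are the lowest and the most tightly spaced for Lyz2, with 24.7 to 28.9 FPKM in F/F and 23.4 to 35.0 in ChMKO mice.

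The F/F mice gave estimates of similar size with wider spread. Lyz2 had 34.9, 48.4, 49.7 and 147 FPKM in normoxia and 25.2, 28.4, 28.9 and 24.7 on the diet. All 4 diet libraries were below all normoxic ones, and the log2 fold change was -1.12 (SE 0.37, unadjusted p = 0.0154, adjusted p = 0.169). Lyz2 was thus also the 1 gene of the set that passed the limit used by the study in F/F mice, which 0.177% of genes passed downward. C1qa had 8.03, 10.2, 13.4 and 23.2 FPKM in normoxia against 5.08, 7.17, 6.71 and 5.10 (-0.98, SE 0.27, adjusted p = 0.155). The estimates of all 9 genes were below 0, while 32.2% of all genes were above it, with a median of -0.78 against -0.10 over all genes, and 5 of the 9 did not overlap between groups (Adgre1, Csf1r, Lyz2, C1qa and C1qc), against 13.3% of all genes in that direction. Limma called 0 of the 9 genes, as it called 0% of the 10707 genes tested. At an unadjusted p under 0.05 there were 7 of the 9, against 23.6% of all genes, and voom on the recovered reads also called 0.

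Without mouse N_WTc369 the F/F estimates were smaller, with a median of -0.46, and Cd14 lost its direction. Lyz2 then stood at -0.69 (unadjusted p = 0.000702, adjusted p = 0.12) and C1qc at -0.55 (unadjusted p = 0.000235, adjusted p = 0.107), and 7 of the 9 genes had an unadjusted p under 0.05, against 17.4% of all genes in that fit. The difference between genotypes in the response to the diet was tested as an interaction, and 0 of the 9 genes passed, against 0% of 10734 genes. Mrc1 had the smallest p among them (0.59, SE 0.24, unadjusted p = 0.0295, adjusted p = 0.451), and it was the one gene under 0.05, against 10.3% of all genes. Voom called 0 in that comparison as well. The median of the 9 interaction estimates was 0.08 with 8 above 0, against 41.2% of all genes. Without mouse N_WTc369 it was -0.24 with 1 above 0, against 38.4%, and that fit called 1093 of 10722 genes and 0 of the 9.

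Averaged over both genotypes, the same 7 genes were called lower, against 46.1% of the 10734 genes tested in that direction and 65% in either. Lyz2 fell by 1.08 on the log2 scale (SE 0.24, adjusted p = 0.00133), C1qa by 0.92 (SE 0.18, adjusted p = 0.000626) and C1qc by 0.81 (SE 0.16, adjusted p = 0.000588). C1qb fell by 0.78, Cd68 by 0.68, Adgre1 by 0.64 and Csf1r by 0.63. Csf1r was also the one gene whose 8 diet libraries all lay below all 8 normoxic libraries, against 6.67% of all genes. All 7 genes were called again by the same test without mouse N_WTc369, where the median of the 9 estimates was -0.53, and by voom on the recovered reads.

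Other leukocyte genes were counted from lists fixed for this comparison over both genotypes. Of all genes tested, 46.1% fell and 18.9% rose, and each count below is to be read against these shares. Of 9 further myeloid genes tested, 6 fell and 0 rose, among them Ctss (a lysosomal protease, -0.67), Fcer1g (an Fc receptor chain, -0.57), Mpeg1 (a pore-forming protein of phagocytes, -0.56) and Laptm5 (a lysosomal membrane protein, -0.54). All 6 tested genes of antigen presentation by MHC class II fell, led by Cd74 (-0.83), H2-Aa (-0.80), H2-Ab1 (-0.79) and H2-Eb1 (-0.77). Markers of resident macrophages were mixed. Of 8 tested, 4 fell, with Cbr2 at -1.08 and Pf4 at -0.60. After rescaling only these 2 were called lower, and the hemoglobin scavenger receptor gene Cd163 was called higher. The interaction of genotype and diet called 0 of these 8 genes. Other leukocyte lists had few or no calls. Of genes tested, 1 of 5 for inflammatory monocytes (Nos2, -0.18), 1 of 2 for dendritic cells (Zbtb46, -0.12), 0 of 3 for neutrophils and 0 of 4 for mast cells fell, and 0 rose. The first pair of lists had 0 calls after rescaling and 0 without mouse N_WTc369. For T cells the 1 gene tested fell (Thy1, also made by other cells, -0.86), and for B cells and NK cells 0 genes were tested.

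Genes around the complement and Cd14 pathways moved in both directions, as did all genes tested (46.1% lower and 18.9% higher). Among 8 other complement genes, 4 fell, including the C1 inhibitor Serping1 (-0.70), the component C3 (-0.65) and the C1r protease gene C1ra (-0.63), and 1 rose. After rescaling 3 of the 8 were lower and 1 higher, and without mouse N_WTc369 4 were lower and 0 higher. Of 7 genes on the Cd14 and Tlr4 axis, 4 fell, with the lipopolysaccharide-binding protein gene Lbp at -0.61, and Tlr4 itself rose by 0.56 (adjusted p = 6.37e-05). After rescaling 2 of the 7 were lower (Lbp and Tlr2), and Tlr4 was again higher. On the Csf1r axis the ligand genes Il34 (-0.49) and Csf1 (-0.30) fell, as did the transcription factor gene Irf8 (-0.25), and after rescaling Csf1 was not called.

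Genes of other cell types moved in the same comparison. All 6 fibroblast markers fell, with Col1a1 at -2.28, as did all 5 tendon markers, all 5 red blood cell markers and 4 of 5 endothelial markers. Summed fibroblast markers ranged from 135 to 168 FPKM in the 8 diet libraries and from 194 to 551 in the 8 normoxic ones, and red blood cell markers from 62.3 to 191 and from 103 to 407. Of the 6 fiber genes, 3 fell too (Ckm, Acta1 and Des), and Ckm and Acta1 after rescaling. With rescaling, 6 of 9 myeloid, 5 of 6 MHC class II and 6 of 6 fibroblast genes were called lower, against 26.6% of all genes in that fit. Without mouse N_WTc369 the counts were 6 of 9, 6 of 6 and 6 of 6, against 43.4%. The part of these cell types in the decline of the leukocyte genes was not tested. The labels number the diet mice in 1 series (KO_C291 to WT_C310) and the normoxic mice in a later one (N_WTc368 to N_WTc401), so that diet and cohort cannot be told apart. The diet lasted 3 months, so the diet mice may also have been older at collection than the normoxic mice. Age at collection was not stated, and diet and age cannot be told apart either.

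In ChMKO mice Ptprc moved on the diet opposite to the 7 genes called lower there, and in F/F mice it gave no call. In normoxic ChMKO mice it had 0.186, 0.10, 0.0916 and 0.170 FPKM, and on the diet 0.276, 0.305, 0.256 and 0.361. Every diet library was above every normoxic one, which held for 14.1% of all 16930 genes of that table with no limit on low values. With no limit on low values the log2 fold change was 0.19 (SE 0.038, adjusted p = 0.00368), against 14.5% of those genes called higher, and this was the one comparison of muscle groups in which Ptprc passed. In F/F mice it had 0.275, 0.397, 0.163 and 0.369 FPKM in normoxia and 0.239, 0.272, 0.270 and 0.331 on the diet (-0.02, adjusted p = 0.837). The interaction of genotype and diet had an unadjusted p of 0.0096 and an adjusted p of 0.555, so a difference between genotypes was not called. In normoxia Ptprc had means of 0.137 FPKM in ChMKO and 0.301 in F/F mice. This gave -0.19 by limma with no limit on low values (unadjusted p = 0.0134, adjusted p = 0.509). On the diet the means were 0.300 and 0.278 FPKM. Ptprc rested on 15 to 138 reads per library in this experiment.

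**Figure D2:**
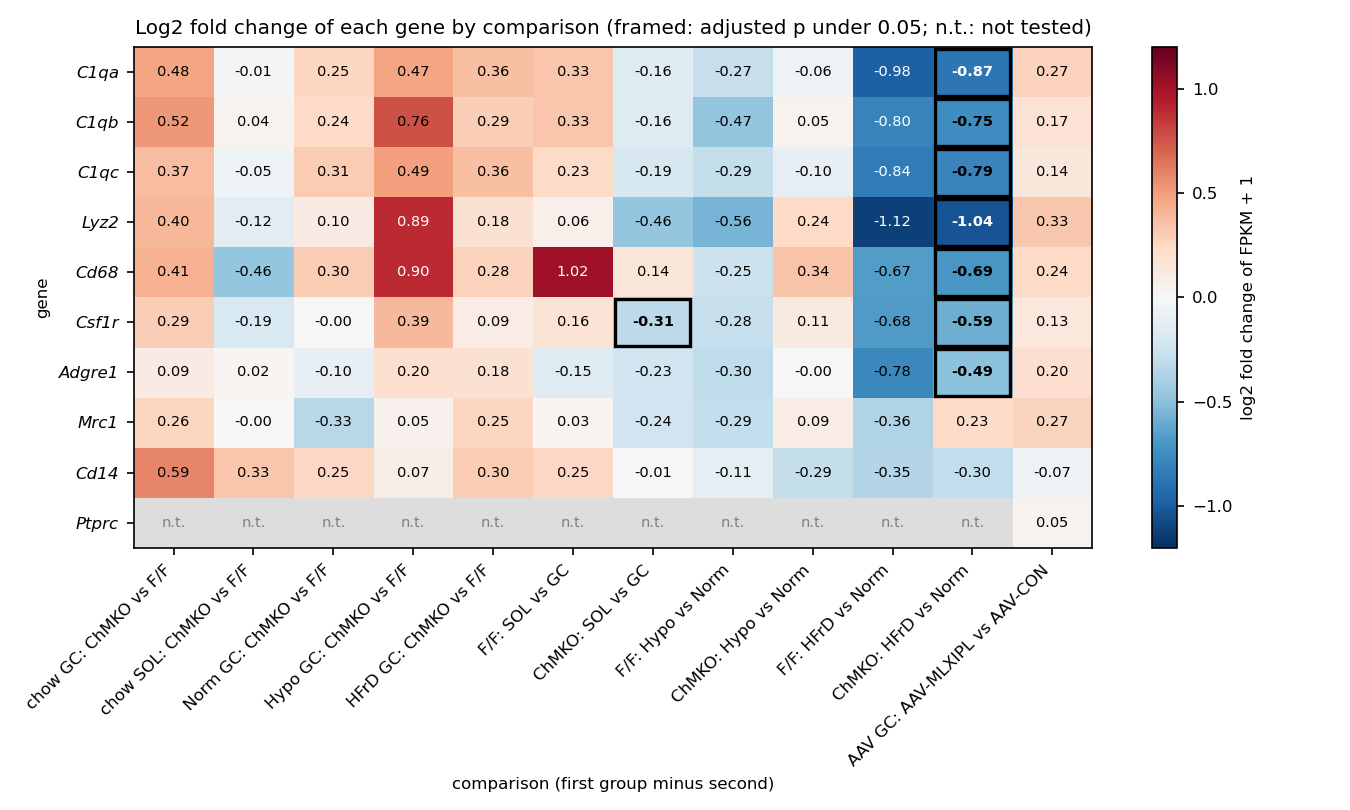
Rows are the 10 genes and columns the 12 pairwise comparisons; color and number give the log2 fold change of FPKM + 1 of the first group against the second, black frames mark an adjusted p under 0.05, and gray cells were not tested. Frames are confined to the diet comparison in ChMKO mice (7 genes) and to SOL against GC in ChMKO mice (Csf1r, -0.31).

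On chow, knockout of ChREBP in muscle fibers went with higher estimates of these genes in GC, none of which passed the adjusted test. All 9 genes tested were above 0, against 52.6% of all genes, with a median of 0.40 against 0.01. Limma called 0 of the 9 and 3 of 12724 genes (0.0236%), and 0 of the 9 passed under each of the alternatives tried. At an unadjusted p under 0.05 there were 5 of the 9 (Cd14, C1qb, C1qa, C1qc and Cd68), against 4.63% of all genes.

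Cd14 showed the clearest separation. Its values were 0.873, 0.588, 0.496, 0.646 and 1.14 FPKM in GC of F/F mice and 2.18, 1.86, 1.62, 1.35 and 1.15 in ChMKO mice. The 2 groups did not overlap, although the highest F/F and the lowest ChMKO library were almost equal, and 0.542% of all genes were separated in this direction. The log2 fold change was 0.59 (SE 0.13, unadjusted p = 0.000649, adjusted p = 0.468), and the adjusted p ranged from 0.0957 to 0.862 over the alternatives. Without ChMKO mouse 59 it was 0.52 (adjusted p = 0.628).

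C1qb had 5.30, 7.41, 5.59, 6.34 and 8.25 FPKM in F/F and 13.2, 9.94, 9.30, 7.57 and 9.62 in ChMKO GC (0.52, SE 0.14, adjusted p = 0.628). The lowest ChMKO library lay within the F/F range. C1qa had 7.99, 9.08, 8.92, 6.99 and 11.1 against 18.7, 10.4, 11.0, 11.0 and 13 FPKM (0.48, SE 0.15, adjusted p = 0.863). Lyz2 had 26.5, 28.6, 20.1, 26.7 and 36.8 against 60.2, 31.4, 28.7, 34.5 and 32.8 (0.40, SE 0.20, adjusted p = 1.00). The ChMKO mouse 59 was highest for each of these genes. Without it the median of the 9 estimates was 0.28, 8 of the 9 were above 0 and 3 had an unadjusted p under 0.05. The lowest estimate of the set was that of Adgre1, at 0.09 with all libraries and -0.02 without mouse 59. In that fit 5.0% of all genes had an unadjusted p under 0.05.

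In SOL of the same mice the genes did not move together. Estimates of 3 of the 9 genes were above 0, against 42.4% of all genes, the median was -0.01 against -0.02 over all genes, and limma called 0 of the 9 and 0.0225% of 13348 genes. Cd14 was the one gene with an unadjusted p under 0.05, against 9.74% of all genes. It had 0.908, 1.39, 1.4, 0.874 and 0.817 FPKM in F/F and 1.49, 1.63, 1.81, 1.73 and 1.34 in ChMKO SOL (0.33, SE 0.10, unadjusted p = 0.00664, adjusted p = 0.391). The lowest ChMKO library overlapped the F/F group. Lyz2 had 25.5, 42.8, 27.9, 31.4 and 19.3 FPKM in F/F and 27.4, 18.2, 27.5, 30.0 and 28.8 in ChMKO SOL, with wide overlap (-0.12, SE 0.19). Without SOL of F/F mouse 70 the median was 0.04 and 6 of the 9 estimates were above 0. The difference in the genotype effect between the muscles was tested as an interaction and called 0 of the 9 genes, against 0.00759% of all genes. All 9 interaction estimates were below 0, while 41.7% of all genes were above it, with a median of -0.48. C1qb had the smallest p and was the one gene under 0.05, against 5.31% of all genes (-0.49, SE 0.22, unadjusted p = 0.0404, adjusted p = 0.892). Without GC of ChMKO mouse 59 the median was -0.34, Adgre1 stood above 0 (0.04), and 0 of the 9 genes had an unadjusted p under 0.05, as was also so without SOL of F/F mouse 70 (median -0.38).

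**Figure D3:**
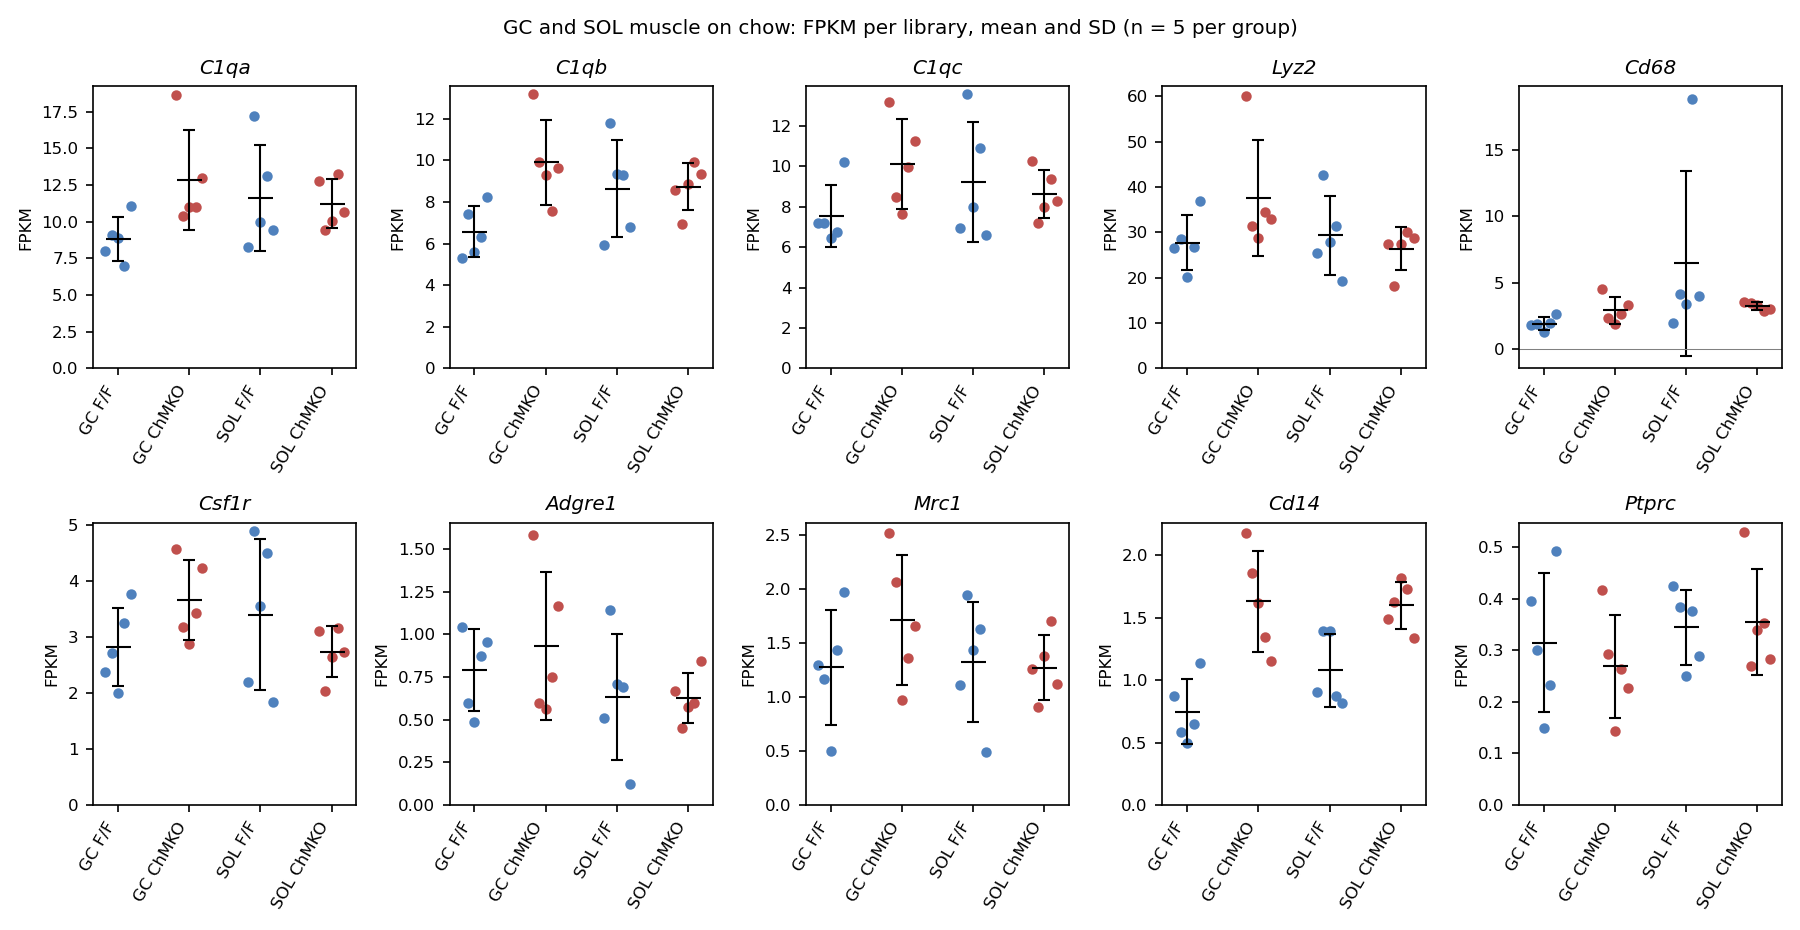
Each panel plots 1 gene on a linear FPKM axis for both muscles and genotypes of the chow experiment; points are libraries (n = 5 per group), and bars give the mean and SD. Cd14 in GC separates the genotypes (0.496 to 1.14 against 1.15 to 2.18 FPKM), and Cd68 in SOL shows 1 F/F library at 18.9 FPKM.

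Between muscles, most genes of the set did not pass the test on the deposited scale, and rescaling changed the count in ChMKO mice. Limma called 1 of the 9 genes over both genotypes, Cd68, which was higher in SOL, against 49.3% of 13176 genes called higher and 68% called in either direction. The median over the 9 genes was 0.02 (0.06 without GC of ChMKO mouse 59 and -0.02 without SOL of F/F mouse 70) and over all genes 0.17. All genes shifted toward SOL on this scale, by 0.18 in F/F and 0.15 in ChMKO mice at the median, and over both genotypes 8 of the 9 estimates lay below that median.

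Cd68 had 1.81, 1.86, 1.27, 1.96 and 2.66 FPKM in GC of F/F mice 57, 58, 69, 70 and 71, and 2.00, 4.14, 3.40, 18.9 and 3.99 in their SOL. SOL was higher in 5 of 5 F/F mice, and mouse 70 stood far above the others. The SOL library of F/F mouse 69 carries 59 in its title and 69 in its column name, and was paired by the column. This limit holds for each count of F/F mice. In F/F mice alone limma called 0 of the 9 genes, against 50.4% of 13235 genes, and Cd68 had a log2 fold change of 1.02 (SE 0.41, adjusted p = 0.056). This test did not use the pairing by mouse. Cd68 was called in 5 of 15 alternatives, among them that with mouse as a block. Without the SOL library of mouse 70 its log2 fold change was 0.58 with an adjusted p of 0.0234, which passed. With all libraries Cd68 was the one gene of the set with an unadjusted p under 0.05, against 56.7% of all genes. In ChMKO mice the values were 4.49, 2.38, 1.87, 2.62 and 3.31 in GC and 3.55, 3.44, 3.33, 2.90 and 3.00 in SOL, higher in 3 of 5 mice (0.14, SE 0.15). Over both genotypes Cd68 was 0.58 higher (SE 0.23, adjusted p = 0.0325), and 0.36 higher without that library (adjusted p = 0.0135). After rescaling each library by its median ratio Cd68 was no longer called, and Adgre1 and Lyz2 were called lower in SOL, against 32.5% of all genes.

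Csf1r was lower in SOL than in GC of the same mouse in 5 of 5 ChMKO mice. It had 4.56, 3.18, 2.88, 3.43 and 4.22 FPKM in GC and 3.11, 2.03, 2.64, 3.15 and 2.73 in SOL, and the groups overlapped. The log2 fold change was -0.31 (SE 0.12, adjusted p = 0.0376), the one call among 9 genes in ChMKO mice, where 16.9% of 13080 genes were called lower and 57.9% in either direction. This call was lost without GC mouse 59 (-0.25, adjusted p = 0.0855) and in 5 other fits that left out 1 library. Lyz2 was also lower in SOL in 5 of 5 ChMKO mice (-0.46, SE 0.19, adjusted p = 0.0585), and with mouse as a block both genes passed, against 16.1% of all genes called lower. After rescaling, 5 of the 9 genes were called lower in SOL of ChMKO mice (Csf1r, Lyz2, C1qa, C1qb and C1qc), against 28.0% of all genes. In F/F mice Csf1r was higher in SOL in 3 of 5 mice (0.16, SE 0.21) and Lyz2 in 3 of 5 (0.06, SE 0.20).

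Of 8 resident macrophage markers tested over both genotypes, 2 were lower in SOL and 0 higher, against 18.6% of all genes lower and 49.3% higher. Cbr2 (a carbonyl reductase also made by other cells) was 3.03 lower on the log2 scale, with means of 5.88 FPKM in SOL and 56.3 in GC, and the lectin gene Clec10a was 0.29 lower. On the Cd14 and Tlr4 axis 5 of 6 genes tested were higher in SOL, led by Tlr4 (0.90), Ticam1 (0.58), Myd88 (0.44) and Irak4 (0.38). On the Csf1r axis Csf1 was 0.53 higher and Irf8 0.31 lower. All 5 endothelial and all 5 red blood cell markers were higher in SOL, also after rescaling, which left 4 of the 6 genes on the Cd14 and Tlr4 axis higher. Their part in the values of the leukocyte genes was not tested.

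Under normoxia and under both treatments, genotype gave no call among the leukocyte genes. In normoxia 6 of the 9 estimates were above 0, against 59.5% of all genes, with a median of 0.24, and limma called 0 of the 9 and 0.00922% of 10848 genes, with 0 of the 9 at an unadjusted p under 0.05 against 11.1% of all genes. Without mouse N_WTc369 the median was 0.53, 8 of the 9 estimates were above 0 and 4 had an unadjusted p under 0.05, against 33.2% of all genes in that fit, again with 0 called. C1qc was then 0.60 higher in ChMKO mice (unadjusted p = 0.00559, adjusted p = 0.0744) and Cd14 0.61 higher (unadjusted p = 0.0267, adjusted p = 0.109). Voom called 0 in each of the 3 conditions.

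In hypoxia 9 of the 9 estimates were above 0, against 65.4% of all genes, with a median of 0.47 against 0.08. Limma called 0 of the 9 and 0.00941% of 10628 genes, and 4 had an unadjusted p under 0.05 against 5.27% of all genes. Cd68 had 1.76, 1.61, 3.42 and 2.77 FPKM in F/F and 5.84, 2.24, 4.33 and 11.2 in ChMKO mice (0.90, SE 0.35, unadjusted p = 0.0299, adjusted p = 0.532). Lyz2 had 28.7, 22.1, 63.3 and 62.9 in F/F and 63.1, 56.4, 61.3 and 145 in ChMKO mice (0.89, SE 0.40, unadjusted p = 0.0491, adjusted p = 0.532). The F/F mice fell into a lower and a higher pair, and the higher pair, mice H_WTc341 and H_WTc348, lay within the ChMKO range of both genes. Without ChMKO mouse H_KOc345 Lyz2 stood at 0.58 and Cd68 at 0.57, 7 of the 9 estimates were above 0, and 0 of the 9 had an unadjusted p under 0.05, against 3.1% of all genes in that fit. Without F/F mouse H_WTc341 the median was 0.67, 8 of the 9 estimates were above 0 and 6 had an unadjusted p under 0.05, against 21.9% of all genes, with 0 called.

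On the high-fructose diet 9 of the 9 estimates were above 0, against 45.7% of all genes, with a median of 0.28 against -0.01. Mouse KO_C309 was the highest of the ChMKO group for 9 of the 10 genes. Over the fits that left out 1 library the median ranged from 0.16 to 0.34, with 0 called. Limma called 0 of the 9 and 0.019% of 10515 genes. Cd14 had 0.835, 1.11, 0.902 and 0.846 FPKM in F/F and 1.37, 1.36, 1.18 and 1.56 in ChMKO mice (0.30, SE 0.068, unadjusted p = 0.00148, adjusted p = 0.545). C1qc had 2.64, 3.22, 2.75 and 2.48 against 3.52, 3.68, 3.44 and 4.80 FPKM (0.36, SE 0.094, unadjusted p = 0.00375, adjusted p = 0.583). For these genes and C1qa (0.36, adjusted p = 0.585) every ChMKO library was above every F/F library, which held for 1.52% of all genes. At an unadjusted p under 0.05 there were 4 of the 9, against 7.36%.

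Cd14 and C1qb were the 2 genes of the 9 whose estimates were above 0 in all 5 comparisons of ChMKO with F/F mice, and neither passed the adjusted test in any. For Cd14 the estimates were 0.59, 0.33, 0.25, 0.07 and 0.30 in chow GC, chow SOL, normoxia, hypoxia and diet, and for C1qb 0.52, 0.04, 0.24, 0.76 and 0.29. In hypoxia the groups overlapped fully for Cd14, with 0.487, 0.825, 2.23 and 1.97 FPKM in F/F and 0.928, 1.19, 1.39 and 2.18 in ChMKO mice, and the estimate was -0.06 without mouse H_KOc345.

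Hypoxia itself, compared with the same normoxic mice as the diet, gave no call. In F/F mice all 9 estimates were below 0, while 30.5% of all genes were above it, with a median of -0.29 against -0.06 over all genes, and limma called 0 of the 9 and 0% of 10740 genes. An unadjusted p under 0.05 was seen for 0 of the 9 and 3.83% of all genes. Without mouse N_WTc369 the median was -0.01 and 3 of the 9 estimates were above 0. In ChMKO mice the median was 0.05 (-0.09 without mouse H_KOc345), with 0 of the 9 and 0.89% of 10676 genes called. Over both genotypes it was -0.16 (-0.02 without mouse N_WTc369 and -0.22 without mouse H_KOc345), with 0 of the 9 and 1.5% of 10751 genes called. At an unadjusted p under 0.05 there were 0 of the 9 in both, against 15.1% and 15.8% of all genes, and voom called 0. The interaction of genotype and hypoxia called 0 of the 9 genes and 0% of all genes, and 0 of the 9 had an unadjusted p under 0.05 against 1.23% of all genes. C1qa, as an example, had 8.03, 10.2, 13.4 and 23.2 FPKM in normoxic F/F, 6.89, 7.34, 15.9 and 13.8 in hypoxic F/F and 15.2, 12.5, 15.5 and 15.8 in hypoxic ChMKO mice. These groups overlapped.

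Overexpression of ChREBP by vector left the set without a call as well. Limma called 0 of the 10 genes and 1 of 11058 genes (0.00904%), and 0 of the 10 passed with the animal number as a block. Estimates of 9 of the 10 genes were above 0, against 64.2% of all genes, with a median of 0.18 against 0.02. Lyz2 had 31.1, 33.1, 33.1, 28.2 and 30.3 FPKM with AAV-CON and 38.5, 39.1, 39.9, 47.7 and 32.6 with AAV-MLXIPL. Only mouse 8 of the AAV-MLXIPL group fell within the control range, and the log2 fold change was 0.33 (SE 0.086, unadjusted p = 0.0026, adjusted p = 1.00). C1qa had 9.61, 10.8, 10.6, 7.15 and 8.99 against 11.1, 12.0, 12.1, 13.6 and 9.11 FPKM (0.27, SE 0.11, unadjusted p = 0.0334, adjusted p = 1.00), and Lyz2 and C1qa were the 2 genes with an unadjusted p under 0.05, against 2.91% of all genes.

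Cd68 had 2.38, 3.03, 2.57, 2.39 and 2.50 FPKM with AAV-CON and 3.58, 3.64, 3.54, 3.51 and 2.05 with AAV-MLXIPL. Mouse 8 was below all controls and the other 4 above all of them (0.24, SE 0.11, unadjusted p = 0.0547, adjusted p = 1.00). Without that mouse the log2 fold change of Cd68 was 0.36 (unadjusted p = 0.000272, adjusted p = 0.611) and that of Lyz2 0.39 (unadjusted p = 0.000276, adjusted p = 0.611). Cd14 was the one gene below 0, with 0.405 to 0.964 FPKM with AAV-CON and 0.418 to 0.935 with AAV-MLXIPL (-0.07, SE 0.11). Ptprc, tested here, had 0.921 to 1.16 and 0.805 to 1.58 FPKM (0.05, SE 0.092).

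**Figure D4:**
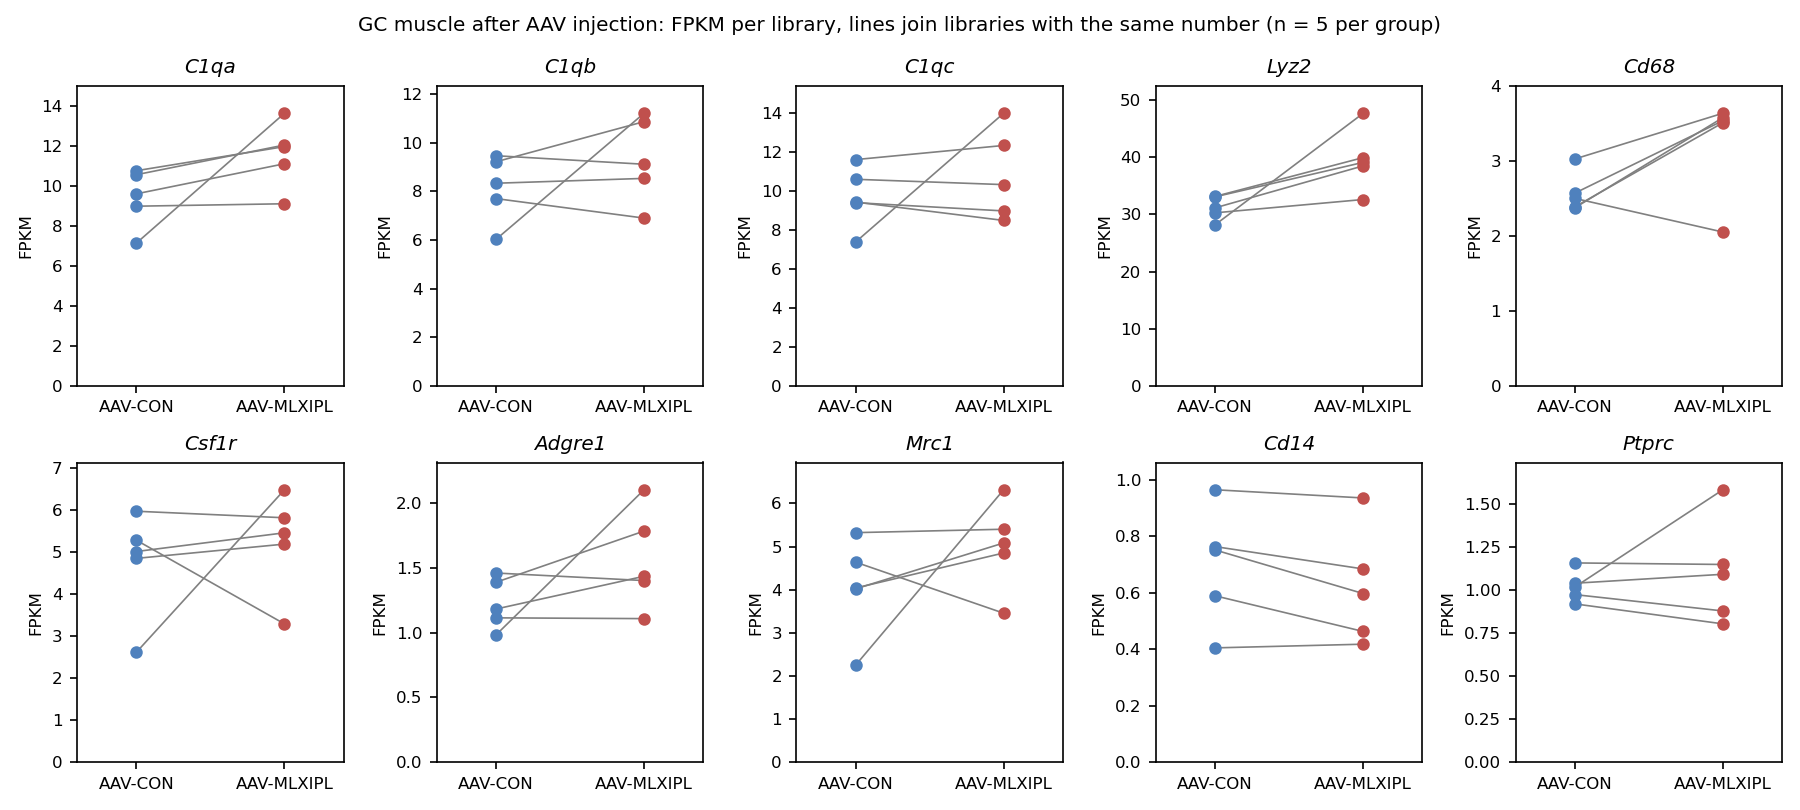
Each panel plots 1 gene on a linear FPKM axis for GC injected with AAV-CON or AAV-MLXIPL. Points are libraries (n = 5 per group), and gray lines join libraries with the same number. Mouse 8 of the AAV-MLXIPL group is the lowest of its group for 9 of the 10 genes, for example Cd68 at 2.05 FPKM against 3.51 to 3.64 in the other 4.

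In C2C12 cells, which hold no leukocytes, most of the genes listed were at or near 0. Lyz2 stood at 0 to 0.45 FPKM in the 8 libraries, Csf1r at 0.02 to 0.11, Mrc1 at 0 to 0.06 and Ptprc at 0 to 0.01. Cd68 was present at 0.96 to 1.70 FPKM. Cd14 was the most abundant of the 6 genes listed, with 19.5, 20.6, 15.6 and 16.2 FPKM in control cells and 21.3, 18.1, 24.2 and 17.1 in OE cells. Cd14, and to a lesser degree Cd68, was thus measured in a muscle cell line in which the other 4 listed genes were at or near 0. The part of fibers and of other cells than leukocytes in the Cd14 of whole muscle was not tested.

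**Figure D5:**
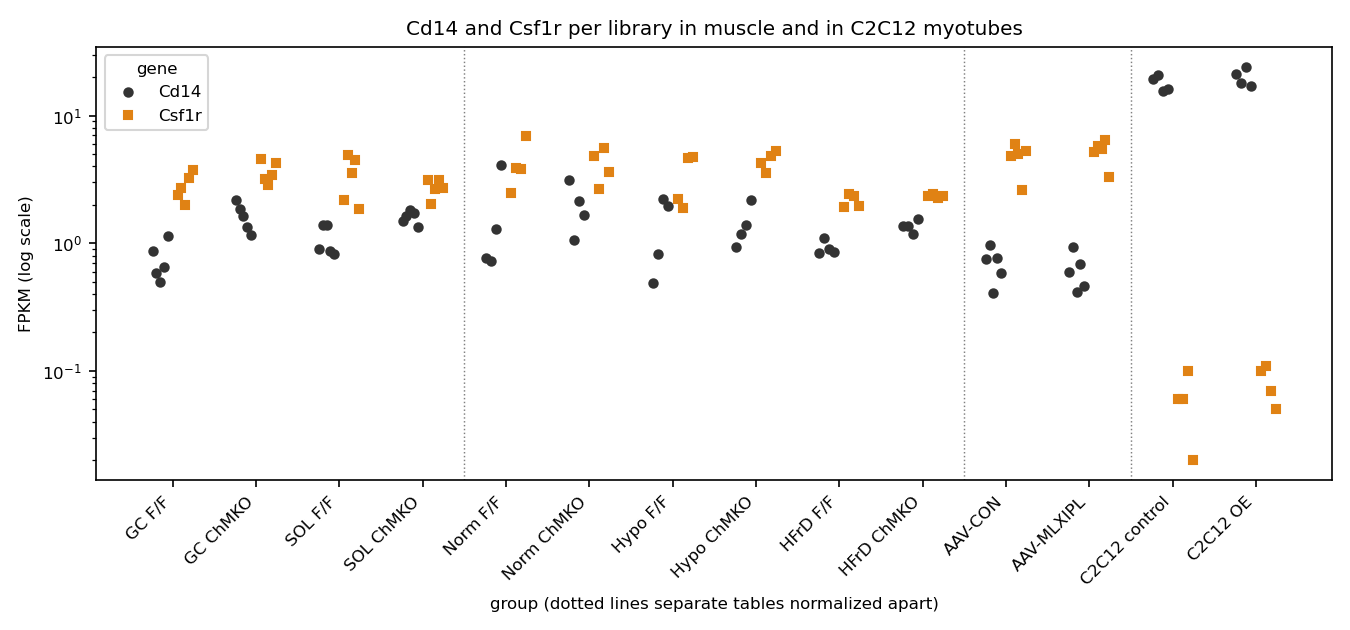
FPKM of Cd14 (dark circles) and Csf1r (orange squares) in every library of the 14 groups, on a log axis, with dotted lines between tables normalized apart. Csf1r exceeds Cd14 in every muscle group on average, and in C2C12 the order turns, with Cd14 at 15.6 to 24.2 FPKM and Csf1r at 0.02 to 0.11.

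Within groups, libraries of the hypoxia and diet experiment differed most for 8 of the 10 genes, and Mrc1 and Ptprc were the exceptions. The within-group SD of log2 values was 0.59 for Lyz2 and 0.58 for Cd68 there, against 0.24 for Mrc1 in that experiment and 0.15 for Lyz2 in the vector experiment. The 10 genes tended to be high or low in the same libraries. In normoxic ChMKO mice, mouse N_KO_370 was highest for 9 of the 10 genes and mouse N_KO_374 lowest for 9, and in HFrD ChMKO mice mouse KO_C309 was highest for 9. After group means were subtracted, the genes outside the set that followed its mean most closely over the 24 libraries of that experiment were H2-Ab1 (Pearson r = 0.95), Laptm5 (0.94), Itgb2 (0.94), Stab1 (0.92) and H2-Aa (0.92), among 9315 genes. Over the 20 chow libraries they were Ctss (0.93), F13a1 (0.92), Tgfbi (0.91), Rnase4 (0.89) and Anxa1 (0.88), among 11266 genes. Over the 10 vector libraries they were Cadm3 (0.96), Tec (0.95), Man1a2 (0.95), Stab1 (0.95) and Tshz2 (0.94), among 9759 genes. These correlations describe libraries that also share depth and tissue sampling, and the genes were ranked by them.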

How the data were processed

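RNA was sequenced by the study on the NovaSeq platform. The submitters' processing notes name fastp 0.18.0, Bowtie2 2.2.8, HISAT2 2.1.0, StringTie 1.3.1, RSEM and build GRCm39, and the authors deposited FPKM per gene for each library. Whether counting used strand was not given in the sources used here. In the chow table gene positions were those of GRCm38. The unit of the vector and cell line tables was taken from their values. The vector table also holds fold changes, p-values and false discovery rates of the authors' own comparison, which were not used, and no other column of a sample was left out (0 columns).

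The genes, the other lists and the tests were chosen with earlier results of these data known. Genes whose mean FPKM in the libraries compared reached 0.5 were tested as log2(FPKM + 1) with limma 3.58.1 (R 4.3.3, empirical Bayes with a trend), and p-values were adjusted by Benjamini-Hochberg over all genes tested. A gene was called at an adjusted p under 0.05. Fold changes on this scale understate changes of low genes. Both genotypes were averaged or contrasted in 1 model for the diet, hypoxia and muscle comparisons. Where a symbol was repeated the row with the highest mean was kept. The members were named by the rule that chose them, and in other lists up to 4 called genes with the largest changes were named, with the exceptions stated. Of the list on the Csf1r axis, 1 gene is not reported here.

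FPKM values of the hypoxia and diet experiment came back to whole reads within 0.01 read for 99.8% of values, which gave exact depths and the reads for voom. Depths of the chow and vector experiments were estimated from the same steps, and the depth of the cell line libraries is unknown. Normoxic mice served as controls for both hypoxia and diet, so these comparisons share samples. Replicates within a group were separate mice. GC and SOL of 1 number were taken as 1 mouse, by the titles except for 1 F/F SOL library, whose title has 59 and whose column has 69 and which was paired by the column (r = -0.0239). The correlation of their deviations from group means was -0.0239 to 0.323. In the vector experiment same-numbered libraries correlated at 0.211 to 0.49 and were taken as paired for the replicate block. The main tests between muscles and between vectors did not use the pairing, which entered only as that block among the alternatives. Alternatives were a pseudocount of 0.1, no limit on low values, a mean of at least 5 FPKM, rescaling by the median ratio, 1 fit over all groups, a replicate block, voom and leaving out each library. Rescaling of the other lists, and those lists without mouse N_WTc369, were added after the data were seen. Python 3.11.15, pandas 2.3.3, numpy 2.4.6 and matplotlib 3.10.9 were used for description and plots, and the fitting code was tested on simulated data.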

Additional observations from a re-analysis of the deposited data

Results flagged for a closer look

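In each group of 4 or 5 libraries, the highest or lowest value of a gene was compared with the rest by Dixon's criterion. It was met in 16 of 131 pairs of a gene and a group. The chance rate of about 1 of 20 holds for independent, normally distributed values. These genes tended to be high or low in the same libraries, so the count cannot be read against that rate. Normoxic F/F mouse N_WTc369 stood above its group for Lyz2 (147 FPKM against 34.9 to 49.7), C1qc (11.4 against 4.21 to 4.80), Adgre1 (5.02 against 1.37 to 1.87) and Cd14 (4.13 against 0.730 to 1.28). Hypoxic ChMKO mouse H_KOc345 stood above its group for Lyz2 (145 FPKM against 56.4 to 63.1) and Adgre1 (3.26 against 1.65 to 1.84), and HFrD ChMKO mouse KO_C309 for C1qb (9.21 against 6.30 to 6.66). On chow, Lyz2 was highest in GC of ChMKO mouse 59 (60.2 FPKM against 28.7 to 34.5) and lowest in SOL of ChMKO mouse 60 (18.2 against 27.4 to 30.0). C1qc was highest in GC of F/F mouse 71 (10.2 FPKM against 6.45 to 7.19), and Cd68 in SOL of F/F mouse 70 (18.9 against 2.00 to 4.14). Cd68 was lowest in AAV-MLXIPL mouse 8 (2.05 FPKM against 3.51 to 3.64).

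In the C2C12 libraries the criterion was met at very low values, by Lyz2 in control 3 (0.45 FPKM against 0 to 0.07) and OE 4 (0.15 against 0), by Mrc1 in OE 2 (0 against 0.02) and by Ptprc in OE 4 (0.01 against 0). Cd14 in C2C12, which no comparison used, had means of 18.0 FPKM in control cells and 20.2 in OE cells.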

How the results depend on the processing

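Of 310 counts of called genes under the alternatives, 282 stayed within 1.5 times the main count and 28 did not, and no called log2 fold change turned its sign. In the diet comparison of ChMKO mice (7 genes called), 4 were called with a mean of at least 5 FPKM, where 4 were tested, and 4 in 1 fit over all groups. Leaving out 1 library gave 5 to 8 (5 without mouse N_KO_370, N_KO_375, KO_C291 or KO_C299, and 8 without mouse N_KO_374). Over both genotypes (7 called) the stricter limit gave 4, and leaving out 1 library 6 to 7.

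For SOL against GC of F/F mice (0 called), a pseudocount of 0.1, 1 fit over all groups and the replicate block each gave 1, Cd68, and leaving out 1 library 0 to 2. For ChMKO mice (1 called), no limit on low values, the stricter limit and 1 fit over all groups gave 0, rescaling 5 and the replicate block 2, and leaving out 1 library 0 to 3. Over both genotypes (1 called) no limit and the stricter limit gave 0, rescaling 2, the replicate block 1, and leaving out 1 library 0 to 2. Without F/F mouse 58 in SOL 2 were called, and without GC of F/F mouse 69 or of ChMKO mouse 60 or 61 there were 0. The replicate block changed no call in the vector experiment (0 called). Apart from the number of genes or libraries fitted, the cause of these shifts was not tested.

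Rescaling moved the share of calls that were higher in SOL from 75.1% to 47.0% in F/F, from 70.7% to 48.2% in ChMKO mice and from 72.6% to 48.9% over both, from 29.1% to 51.7% for the diet over both genotypes, and for hypoxia from 28.4% to 43.4% in ChMKO mice and from 23.6% to 62.2% over both. Without mouse N_WTc369 the interaction of genotype and diet called 1093 genes and 0 of the 9. Ptprc, at 15 to 138 reads per library, was below the limit on low values in the comparisons of that experiment.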
